A study of Mus musculus with 6 samples.

Results

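The Hsp70 family was followed in mouse macrophages exposed to an inhibitor of these chaperones. The 10 genes examined were Hspa1a, Hspa1b, Hspa4, Hspa4l, Hspa5, Hspa8, Hspa9, Hspa13, Hspa14 and Hsph1. They were taken by name from the array's annotation, and all 10 were present among its 25206 probe sets, each with 1 probe set. The study holds 6 arrays, each of total RNA from bone marrow-derived macrophages. The 3 control samples received no agent. The 3 JG-98 samples received 0.3 micromole of JG-98, a dose given without a volume, for 16 hours. The labels name no vehicle, no mouse strain and no age, and leave the source of the replicates unsaid. The p-values therefore cover the variation among these 6 samples, and that variation may be technical.

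Hsp70 proteins bind exposed hydrophobic stretches of unfolded polypeptides and release them in a cycle driven by ATP. J-domain proteins start the cycle by stimulating ATP hydrolysis, and nucleotide exchange factors end it by expelling ADP. JG-98 binds an allosteric pocket of the ATPase domain, a domain that family members share. Each compartment has its own Hsp70: Hspa8 and the stress-inducible Hspa1a and Hspa1b in the cytosol, Hspa5 (BiP) in the endoplasmic reticulum, and Hspa9 (mortalin) in mitochondria, where it pulls imported proteins through the inner membrane. In many cells, loss of chaperone capacity releases the transcription factor HSF1, which drives Hspa1a and Hspa1b, while unfolded protein in the endoplasmic reticulum drives Hspa5.

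None of the 10 transcripts passed the test for a difference between JG-98 and control samples (limma over all probe sets, Benjamini-Hochberg adjusted p from 0.19 to 0.99). Over all probe sets 0.0397% passed. The mitochondrial Hspa9 stood furthest apart, 1.34-fold higher with JG-98 (95% interval 1.2 to 1.48), and the endoplasmic reticulum member Hspa5 stood 1.11-fold higher (0.996 to 1.23). The constitutive cytosolic Hspa8 gave a ratio of 1.00 (0.886 to 1.14). Hspa9 was the 1 member of 10 with an unadjusted p under 0.05, against 8.32% of all probe sets. All JG-98 values lay above all control values in 2 members, Hspa9 and Hspa5, against 7.12% of probe sets, and below them in 0 members, against 8.44%. The groups did not overlap in 2 of 10 members with all arrays, against 15.6% of probe sets in either direction. With 1 array left out, when such separation is more frequent (23.3% to 30.4% of probe sets), the count was 4 without control replicate 3 (23.9%), 3 without control replicate 1 (24.3%) or JG-98 replicate 3 (30.4%), and 2 without any other. Hspa5 and Hspa9 were in each of these counts. Over the 10 members the median log2 difference was 0.097, against 0.001 over all probe sets.

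**Figure D1:**
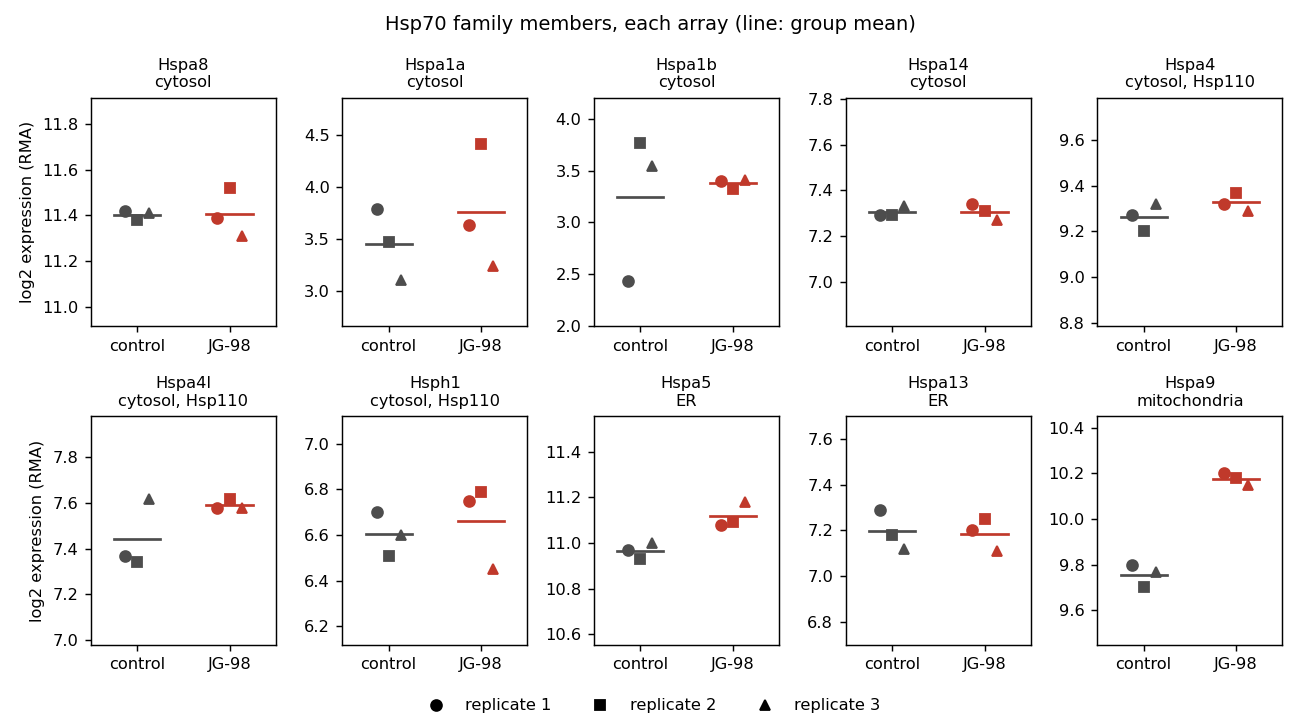
Log2 expression of the 10 Hsp70 family members on each array, with a point per sample (shape gives the replicate number) and a line at each group mean. The vertical axes span 1 log2 unit, or 2.2 for Hspa1a and Hspa1b. The Hspa9 and Hspa5 points of the JG-98 samples lie above those of the control samples, and in the other 8 members the groups overlap.

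Across probe sets JG-98 replicate 3 stood apart from the other arrays. Its correlation with any other array was at most 0.993, whereas each of the others reached 0.996 with at least 1 array, and its median was the highest, at 4.24 against 4.08 to 4.15. Without that array 0 members passed, where 0.0198% of all probe sets did, and Hspa9 had an adjusted p of 0.25 in limma. The labelled cell type was checked against its markers. Of 12 macrophage markers 10 were measured, among them Csf1r, Adgre1 and Cd68, with control means of at least 8.34 on the log2 scale. As a low range the 1082 probe sets of olfactory receptors were used, a family not known for macrophage expression. The 95th percentile of their control means was 3.84. None of the measured neutrophil (8), dendritic cell (7), B cell (5) and mast cell (5) markers reached it. In other lists Klrb1c, Epor, Col1a1, Col1a2, Pecam1, Cdh5, Kdr, Ctsk, Ocstamp and Dcstamp exceeded it. The mean level of the macrophage markers was 10.29 to 10.33 in control and 10.18 to 10.26 in JG-98 samples. Of these 10 markers 0 passed the adjusted test and 2 had an unadjusted p under 0.05, against 8.32% of all probe sets. So did 2 of 8 stromal and 1 of 5 B cell markers, and 0 in the other lists. The part of these marker differences in the results on the members was not tested. In such bulk RNA, fewer cells of a type and less RNA per cell cannot be told apart.

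In control samples Hspa8 gave the highest signal of the family at 11.40 ± 0.021 (SD, n = 3), followed by Hspa5 at 10.97 ± 0.034, Hspa9 at 9.76 ± 0.048 and Hspa4 at 9.26 ± 0.060. Next came Hspa4l at 7.44 ± 0.16, Hspa14 at 7.30 ± 0.023, Hspa13 at 7.20 ± 0.085 and Hsph1 at 6.60 ± 0.097. At the bottom were Hspa1a at 3.45 ± 0.34 and Hspa1b at 3.25 ± 0.72, both under the 3.84 of the olfactory receptors. Of the neighbours in this order, Hspa14 overlapped Hspa13 and Hspa1a overlapped Hspa1b in the range of their control values. The signal of a probe set also depends on its probes and is not scaled per length, so this is an order of array signals and not of transcript numbers. Read by control level, the 5 brightest members had a median log2 difference of 0.149 (0.01 to 0.42) and the 5 dimmest of 0.061 (-0.01 to 0.31).

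**Figure D2:**
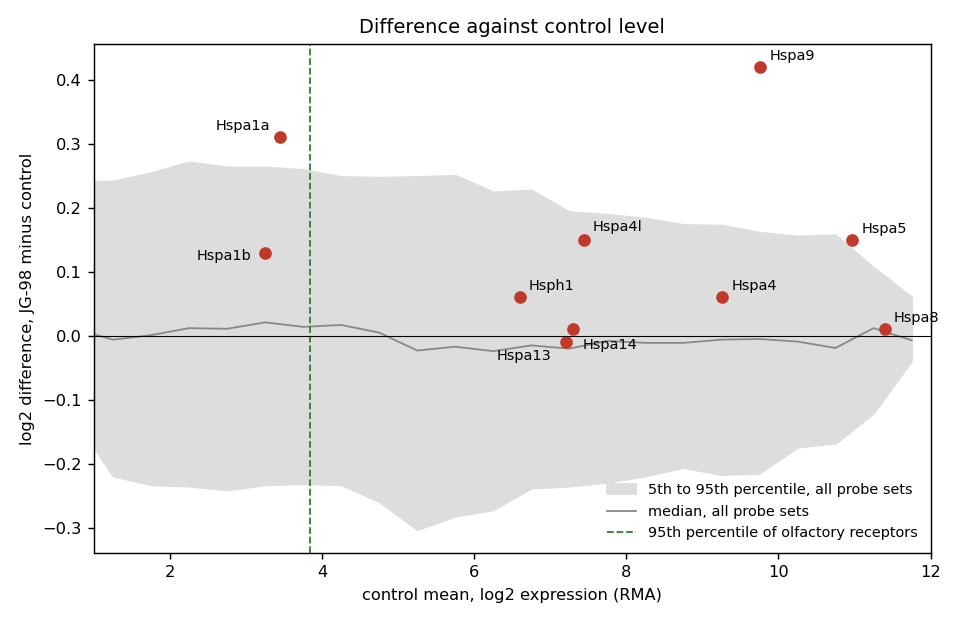
Log2 difference (JG-98 minus control) of the 10 members plotted against their control mean. The grey band holds the 5th to 95th percentile of all probe sets at each level, and the dashed line marks 3.84, the 95th percentile of the olfactory receptors. Hspa9 at 0.42 lies above the band, Hspa1a at 0.31 lies above it left of the dashed line, and Hspa8 at 0.01 lies on the zero line. Hspa5 at 0.15 lies at the upper edge, drawn there between the 95th percentiles 0.158 (level 10.75) and 0.107 (level 11.25).

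Hspa8 encodes Hsc70, the cytosolic chaperone that most cells make at all times. Its log2 expression was 11.42, 11.38 and 11.41 in the control samples and 11.39, 11.52 and 11.31 in the JG-98 samples. The groups overlapped, with the highest and the lowest value both among the JG-98 samples. The log2 difference was 0.01 ± 0.076 (SE, n = 3 per group; limma adjusted p = 0.99), with a 95% interval of -0.17 to 0.19. It turned to -0.012 after median centring of the arrays. It also turned when control replicate 2 (-0.005) or JG-98 replicate 2 (-0.050) was left out.

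Hspa1a and Hspa1b encode the inducible Hsp70 of the heat shock response, from neighbouring genes that are nearly copies of each other. Their RefSeq promoter windows (250 bases before to 50 after the start, GRCm38.p6) matched at 296 of 300 positions. They are shown because these promoters are standard reporters of HSF1, whose site is built from GAA units and their complement TTC. Capitals mark a match to GAANNTTC, and both stretches run to position -77 from the start. The first is at chr17:34972233-34972280 on the minus strand and the second at chr17:34959315-34959362 on the minus strand.
Hspa1a: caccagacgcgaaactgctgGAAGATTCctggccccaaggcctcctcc
Hspa1b: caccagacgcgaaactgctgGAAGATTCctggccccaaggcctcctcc

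The 2 stretches carry the same letters. A 2-unit match (GAANNTTC or TTCNNGAA, both strands) occurred in 15.1% of all 32851 promoter windows, so it is a description and not a mapped site.

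Control samples gave Hspa1a values of 3.79, 3.47 and 3.10, and JG-98 samples 3.63, 4.42 and 3.24. One JG-98 sample, replicate 2, was higher than all others, and the remaining samples were intermixed. The log2 difference was 0.31 ± 0.32 (limma adjusted p = 0.85), with an interval of -0.45 to 1.07, or 0.734-fold to 2.09-fold. Leaving out JG-98 replicate 2 made it -0.018, and leaving out replicate 3 made it 0.569. For Hspa1b the values were 2.43, 3.77 and 3.54 in control and 3.40, 3.32 and 3.41 in JG-98 samples. All JG-98 values fell inside the control range, which was set by a low control replicate 1. Hspa1b differed by 0.13 ± 0.33 (limma adjusted p = 0.95; interval -0.66 to 0.92), and -0.280 without control replicate 1. Treated as 1 gene, the mean of both probe sets differed by 0.22 (limma adjusted p = 0.80). The probes behind each value were not examined here, so signal may be shared between the copies. Both lie in the low range, where RMA compresses differences, and a 2-fold increase in Hspa1a is within its interval.

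Hspa14 encodes an Hsp70 that works with the J-domain protein Dnajc2 on ribosomes. Its values were 7.29, 7.29 and 7.33 in control and 7.34, 7.31 and 7.27 in JG-98 samples, with full overlap. It differed by 0.01 ± 0.062 (limma adjusted p = 0.99), within an interval of -0.14 to 0.15. Its sign changed after median centring (-0.013), without control replicate 2 (-0.002) and without JG-98 replicate 1 (-0.011).

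Hspa4, Hspa4l and Hsph1 belong to the Hsp110 branch, large relatives that serve Hsp70 as nucleotide exchange factors. Hspa4 stood at 9.27, 9.20 and 9.32 in control and at 9.32, 9.37 and 9.29 in JG-98 samples. These ranges overlapped by a narrow margin, and the log2 difference was 0.06 ± 0.067 (limma adjusted p = 0.86; interval -0.10 to 0.23). Hspa4l measured 7.37, 7.34 and 7.62 in control and 7.58, 7.62 and 7.58 in JG-98 samples. Control replicate 3 lay with the JG-98 samples and the other 2 control samples lay below them. Hspa4l differed by 0.15 ± 0.092 (limma adjusted p = 0.73; interval -0.07 to 0.37), and by 0.096 to 0.240 with any 1 array left out.

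Hsph1, itself a heat shock target, is shown with the stretch that holds its first match to TTCNNGAA, at chr5:149636342-149636389 on the minus strand of GRCm38.p6.
Hsph1: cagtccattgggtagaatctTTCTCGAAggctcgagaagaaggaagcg

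The same window also held a 3-unit element, in which GAA and TTC alternate with 2 bases between them, downstream of the start. Such an element was present in 0.603% of all windows, and its 2-unit parts overlap. Hsph1 values were 6.70, 6.51 and 6.60 in control and 6.75, 6.79 and 6.45 in JG-98 samples. JG-98 replicates 1 and 2 exceeded every control sample, and JG-98 replicate 3 was the lowest of all 6. The log2 difference was 0.06 ± 0.11 (limma adjusted p = 0.93; interval -0.21 to 0.33), -0.005 when JG-98 replicate 2 was left out and 0.168 when replicate 3 was.

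Hspa5 encodes BiP, the Hsp70 of the endoplasmic reticulum and the usual readout of its unfolded protein response. Its promoter is shown because it carries the stress element of that response, CCAAT and CCACG with 9 bases between, which was present in 39 of the 32851 windows (0.119%). The stretch lies at chr2:34772005-34772063 on the plus strand of GRCm38.p6, and capitals mark the whole element.
Hspa5: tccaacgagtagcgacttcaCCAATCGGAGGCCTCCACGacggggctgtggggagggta

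Control samples gave Hspa5 values of 10.97, 10.93 and 11.00, and JG-98 samples 11.08, 11.09 and 11.18. All 3 JG-98 values were above all 3 control values, with a gap of similar size to the spread within the JG-98 group. The log2 difference was 0.15 ± 0.065 (limma adjusted p = 0.62), with an interval of -0.01 to 0.30. It stayed between 0.119 and 0.168 in all 14 other settings tried, and did not pass in any of them. Hspa13, a short Hsp70 relative of the same compartment that lacks the substrate-binding domain, measured 7.29, 7.18 and 7.12 in control and 7.20, 7.25 and 7.11 in JG-98 samples. The samples were intermixed, and the log2 difference was -0.01 ± 0.077 (limma adjusted p = 0.99; interval -0.19 to 0.17). The sign of that difference turned without control replicate 1 (0.037) and without JG-98 replicate 3 (0.029).

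Hspa9, the mitochondrial member, gave 9.80, 9.70 and 9.77 in control and 10.20, 10.18 and 10.15 in JG-98 samples. The groups were separated by far more than the range within either, and JG-98 replicate 3 lay with the other JG-98 samples. The log2 difference was 0.42 ± 0.063 (SE, n = 3 per group), equal to 33.6% more signal, with an interval of 0.27 to 0.57 on the log2 scale. By p it ranked 50 of 25206 probe sets, which left an adjusted p of 0.19 in limma (unadjusted p = 0.000393). Over all 25206 probe sets the Hspa9 difference lay at percentile 99.2, and dimmer genes such as Trib3 rose further. Among the 1305 probe sets with a control mean of at least 9, Hspa9 was 1 of 3 with a difference this high. The difference stayed between 0.392 and 0.439 when each array was left out. The call was another matter: Hspa9 did not pass in 11 of 14 other settings, the median-centred values among them (adjusted p = 0.55), but passed when probe sets with a mean under 4 or under 6 were left out (limma adjusted p = 0.036 and 0.0060). It also passed with an intensity trend in the variance (limma adjusted p = 0.0017). Of the probe sets tested, 0.451% passed under the filter at 4, 4.77% under that at 6 and 1.01% with the trend.

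**Figure D3:**
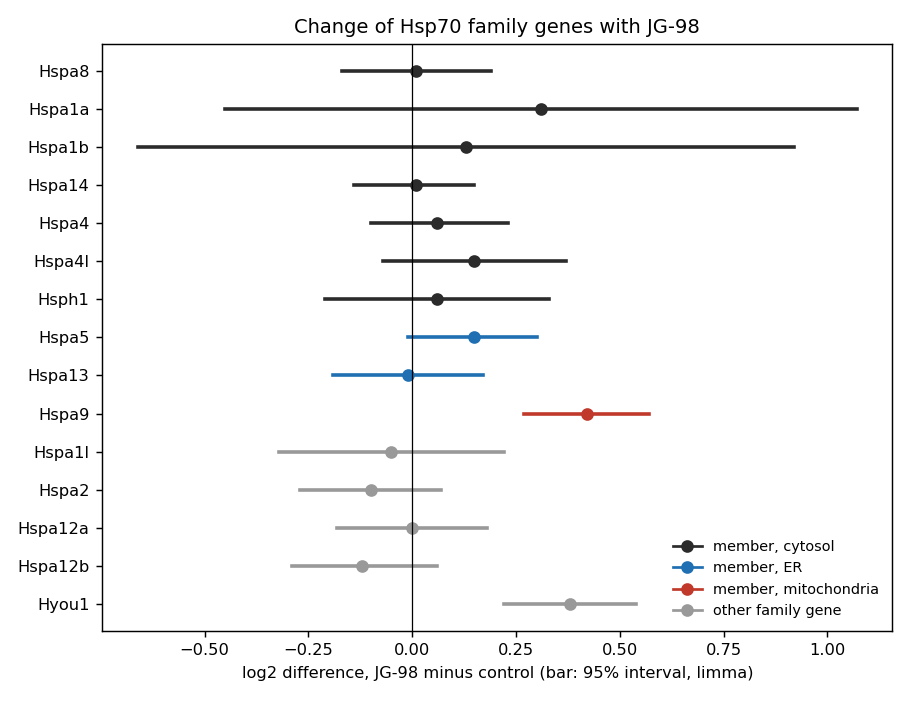
Log2 difference (JG-98 minus control) of the 10 members and of 5 further Hsp70 family genes, with 95% intervals from limma. The intervals of Hspa9 (0.27 to 0.57) and Hyou1 (0.22 to 0.54) exclude 0, and the other 13 include it.

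Of the 5 further family genes 0 passed in limma, and Hyou1 was the 1 with an unadjusted p under 0.05. Hyou1, an Hsp110 relative inside the endoplasmic reticulum that serves Hspa5 as exchange factor, measured 8.31, 8.20 and 8.28 in control and 8.61, 8.61 and 8.70 in JG-98 samples. The groups did not overlap, and the log2 difference was 0.38 ± 0.068 (limma adjusted p = 0.25). Hspa2, best known from the testis, gave 5.29, 5.17 and 5.21 against 5.16, 5.05 and 5.16, a log2 difference of -0.10 ± 0.071 (limma adjusted p = 0.77). Its JG-98 values all lay below its control values, by a small margin. The distant relative Hspa12b differed by -0.12 ± 0.074. Hspa1l and Hspa12a lay in the low range, at control means of 3.42 and 2.58, and differed by -0.05 ± 0.11 and 0.00 ± 0.074.

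To compare compartments without any shift common to a whole array, the log2 value of one Hsp70 was subtracted from that of another on the same array. Hspa9 minus Hspa8 was -1.62, -1.67 and -1.64 in control and -1.19, -1.34 and -1.17 in JG-98 samples. Every JG-98 array lay above every control array, and the change was 0.41 (exact two-sided permutation p = 0.1, the smallest that 3 against 3 samples allow; 0.15 adjusted over 3 pairs). Hspa9 minus Hspa5 was -1.18, -1.23 and -1.23 in control and -0.88, -0.92 and -1.03 in JG-98 samples. Here too the groups were separate, and the change was 0.27 (exact permutation p = 0.1, adjusted 0.15). Hspa5 minus Hspa8 was -0.44, -0.45 and -0.42 in control and -0.31, -0.43 and -0.14 in JG-98 samples. JG-98 replicate 2 fell among the controls, and the change was 0.14 (exact permutation p = 0.2, adjusted 0.2). That last change was 0.06 with JG-98 replicate 3 left out and 0.21 with replicate 2 left out. With all arrays Hspa8 itself differed by 0.01. The changes against Hspa8 therefore largely restate the log2 differences of Hspa9 (0.42) and Hspa5 (0.15).

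**Figure D4:**
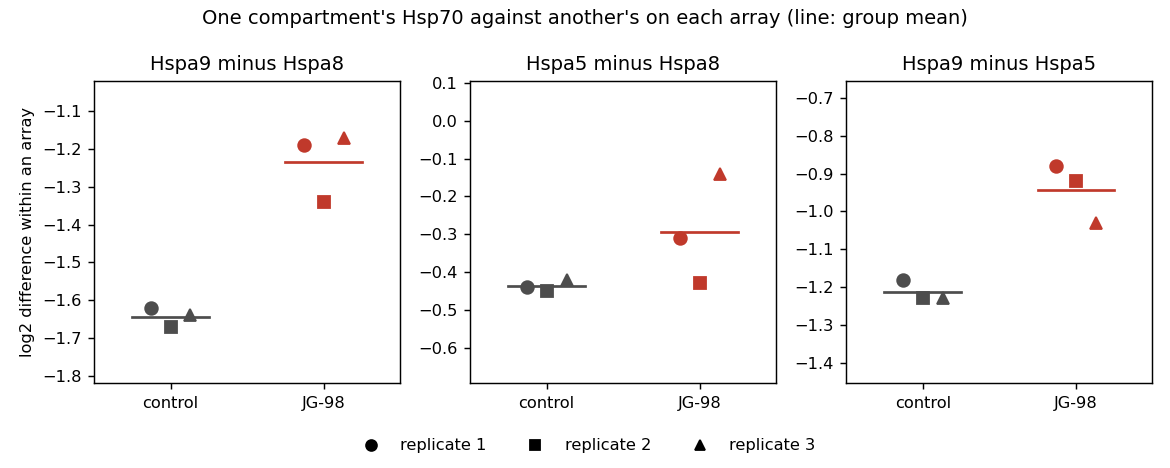
Within-array log2 difference between the Hsp70 genes of 2 compartments, with a point per array (shape gives the replicate number) and a line at each group mean. Hspa9 minus Hspa8 and Hspa9 minus Hspa5 separate the groups, with changes of 0.41 and 0.27, whereas in Hspa5 minus Hspa8 the groups overlap.

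The SD was larger among JG-98 than among control samples in 5 members, such as Hspa8 (0.11 against 0.021) and Hsph1 (0.19 against 0.097). It was smaller in the other 5, such as Hspa1b (0.047 against 0.72) and Hspa4l (0.020 against 0.16), and these differences in spread were not tested. JG-98 replicate 2 held the highest value of Hspa1a, Hspa4, Hspa8 and Hsph1. JG-98 replicate 3 held the lowest value of Hspa8, Hspa13, Hspa14 and Hsph1, and control replicate 2 the lowest of Hspa4, Hspa4l, Hspa5 and Hspa9. Relative to the control mean, Hspa8 stood at -0.01, 0.12 and -0.09 on JG-98 replicates 1 to 3, and Hsph1 at 0.14, 0.19 and -0.15. Hspa9 stood at 0.44, 0.42 and 0.39 on the same arrays.

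Partners of the family were read from lists chosen with earlier results of these data known. Among 21 J-domain proteins of the cytosol and nucleus, 9 of the endoplasmic reticulum and 8 of mitochondria, 0 passed the adjusted limma test and 4 had an unadjusted p under 0.05, 3 of them higher. An unadjusted p under 0.05 was found in 8.32% of all probe sets, the share to set beside this count and those of the lists that follow. The 2 with the smallest p in the cytosolic list were Dnajc2, the ribosomal partner of Hspa14, at 0.19 ± 0.081, and Dnaja4 at 0.15 ± 0.071. In the endoplasmic reticulum they were Sec63, which recruits Hspa5 to the translocation pore, at 0.22 ± 0.062, and Dnajc1 at 0.19 ± 0.064. In mitochondria they were Dnaja3, a partner of Hspa9, at 0.26 ± 0.087, and Dnajc28 at -0.20 ± 0.078. The list medians were 0.00, 0.03 and 0.00 on the log2 scale, and 0.00, 0.04 and 0.07 without JG-98 replicate 3.

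Of 10 nucleotide exchange factors, which include the Bag proteins and the mitochondrial Grpel1 and Grpel2, 0 passed and 0 had an unadjusted p under 0.05. Bag2 at 0.15 ± 0.084 and Grpel2 at 0.12 ± 0.094 had the smallest p. Of 7 measured partners that adapt, label or receive the clients of Hsp70, 0 passed and 1 had an unadjusted p under 0.05. Tomm70a, the outer membrane receptor to which cytosolic Hsp70 delivers mitochondrial precursors, was at 0.25 ± 0.067, and the Hsp70 to Hsp90 adaptor Stip1 at 0.12 ± 0.079.

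Other chaperones of the endoplasmic reticulum had a median log2 difference of 0.10 over 10 genes, against 0.001 over all probe sets. They ran from 0.01 to 0.23, and 0 passed (1 at an unadjusted p under 0.05). The disulfide isomerase Pdia6 was at 0.19 ± 0.063 and the secreted stress protein Manf at 0.23 ± 0.10. Mitochondrial chaperones and proteases had a median of 0.11 over 12 genes, and 0 passed (3 at an unadjusted p under 0.05, all higher). The import channel subunit Timm17a, which feeds precursors to Hspa9, was at 0.27 ± 0.072, and the chaperonin Hspd1 at 0.27 ± 0.083. The median of that list was 0.15 without JG-98 replicate 3. HSF1 targets outside the family had a median of 0.03 over 16 genes, and 0 passed (3 at an unadjusted p under 0.05, 2 of them higher), with Hspd1 again and Hmox1 at 0.24 ± 0.075 smallest in p.

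The list of ATF4 and CHOP targets was also chosen with earlier results of these data known, so its counts are a description. These targets had a median of 0.42 over 21 genes. In the adjusted test 4 rose (Trib3, Asns, Mthfd2 and Nupr1), where 0.0397% of all probe sets passed in either direction. Trib3, a pseudokinase, was at 1.58 ± 0.079 and the one-carbon enzyme Mthfd2 at 0.89 ± 0.068. At an unadjusted p under 0.05 there were 16 of the 21, all higher. Leaving out JG-98 replicate 3 made the count of 4 adjusted calls 2, where 5 of all 25206 probe sets passed (0.0198%). The list median was then 0.45. Leaving out any other single array made the count 0, where 0 of all probe sets passed.

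For Hspa9, Hspa5 and Hspa8, the genes with the most similar profile were sought among 7750 named genes with a control mean of at least 6, by Pearson's r over the 6 arrays. With 6 points in 2 groups, many genes score high by this measure. Over 0.9 there were 355 genes for Hspa9, 202 for Hspa5 and 97 for Hspa8. Closest to Hspa9 was Asns, the asparagine synthetase gene (r = 0.9996), whose log2 difference was 0.92 ± 0.077. It was followed by Snhg6, a host of small nucleolar RNAs (r = 0.9978, log2 difference 0.52), and Park7, a redox-sensitive chaperone (r = 0.9968, log2 difference 0.16). Closest to Hspa5 were the histone deacetylase gene Hdac4 (0.9891), the kinase gene Mapkapk5 (0.9882) and the mitochondrial ribosome gene Mrpl53 (0.9880). Closest to Hspa8 were the mitochondrial genes Hsd17b10 (0.9943) and Ndufa2 (0.9925) and the myeloid receptor gene Cd300e (0.9863), which differed by 0.00 to 0.03 between the groups.

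The precision of 3 arrays per group sets what these values can show. Outside Hspa1a and Hspa1b, the 95% intervals of the 8 remaining members extended 0.15 to 0.27 to either side of the difference on the log2 scale. A 2-fold change of signal in either direction lies outside the interval of 9 of the 10 members, the exception being Hspa1a. Among the 9 is Hspa1b (interval -0.66 to 0.92), with a control mean of 3.25 in the low range, where RMA compresses differences. Its interval therefore cannot exclude a 2-fold change of the transcript.

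The promoter windows covered 7 of the 10 members, the others being Hspa8, Hspa9 and Hspa13. Of these 7, the endoplasmic reticulum stress element matched in Hspa5 alone. The element of ATF4, searched as TGATGNAA on both strands, matched in Hspa14 alone and in 3.97% of all windows.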

How the data were processed

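The authors deposited 1 log2 expression value per probe set and array. Per the submitters' processing notes the tools were RMA, affy and R 2.15.1, with no roles stated. The genome build of the arrays was not given in these sources. RMA, as generally defined, sets arrays to a common distribution, which would remove a shift shared by all genes. Array medians still ran from 4.08 to 4.24. Of 25206 probe sets, 23185 had 1 symbol, brought up to date by Entrez number from RefSeq genes (GRCm38.p6). The members and gene lists were chosen with earlier results of these data known.

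JG-98 and control samples were compared by two-sided moderated tests without covariates (lmFit and eBayes of limma 3.58.1, R 4.3.3), with Benjamini-Hochberg adjustment over all 25206 probe sets and a threshold of 0.05. An SE is the moderated one, with 2.59 prior beside 4 residual degrees of freedom. The fit was tested on simulated data. Within-array pair differences used an exact two-sided permutation test over samples. The genes named were the members, 5 further Hsp70 family genes, the 2 smallest p per list and the 3 most similar profiles for 3 members. Same-numbered samples were not paired: the correlations of their deviations from the group means were 0.095, -0.126 and 0.104. Promoter sequences are RefSeq's, in GRCm38.p6.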

Additional observations from a re-analysis of the deposited data

How the results depend on the processing

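The settings tried beside the reported fit were median centring, quantile normalization, filters at a mean of 4 or 6, an intensity trend, a robust prior, array weights (statmod 1.5.0), the replicate number as a block and each array left out. The number of members that passed was 0 in the reported fit and 1 (Hspa9) under either filter and under the intensity trend. A filter tests fewer probe sets and also refits the prior of the variance on those kept. The cause of these Hspa9 calls was not tested. Both filters kept 8 of the 10 members, leaving out Hspa1a and Hspa1b. The calls numbered 10 of 25206 probe sets in the reported fit (0.0397%). Under the filters at 4 and 6 they numbered 59 of 13090 (0.451%) and 385 of 8064 (4.77%). Over all 25206 they numbered 254 with the trend (1.01%) and 25 with array weights (0.0992%). With 1 array left out they numbered 0 to 5 (0.0198% at most). With the replicate block Hspa9 kept its 0.418 (limma adjusted p = 0.64), and 0 probe sets passed. By deviations from the group means, 2 of the 3 control samples correlated best with a JG-98 sample of another number. Members whose groups did not overlap numbered 2 to 4 with 1 array left out. The pair changes kept their sign in every setting. Hspa4, Hspa4l, Hspa5 and Hspa9 kept their direction in all 14 settings. With 1 array left out, the log2 difference of Hspa1a ran from -0.018 to 0.569, of Hspa1b from -0.280 to 0.393, of Hspa8 from -0.050 to 0.054, of Hspa13 from -0.047 to 0.037, of Hspa14 from -0.011 to 0.027 and of Hsph1 from -0.005 to 0.168. Median centring turned Hspa8 to -0.012 and Hspa14 to -0.013, quantile normalization turned Hspa13 to 0.015, and array weights turned it to 0.017. The cause of these turns was not tested.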

Other observations

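Among the 1305 probe sets with a control mean of at least 9, the 2 besides Hspa9 with a log2 difference at least as high were Erdr1 and a probe set without a symbol, both picked out after their values were seen. Erdr1 measured 10.05, 10.34 and 10.37 in control and 10.68, 10.63 and 10.78 in JG-98 samples, a difference of 0.45 ± 0.10 (limma adjusted p = 0.36). In the same bright range 85 probe sets stood as high as Hspa5 (6.51%), 283 as high as Hspa4 (21.7%) and 591 as high as Hspa8 (45.3%).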
